A study of Mus musculus with 6 samples.

Results

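Genes of the nuclear pore and of nuclear transport were followed in the livers of CYP2D6-humanized mice through pregnancy. Members were all genes whose symbol starts with Nup and a digit, Kpna, Kpnb, Xpo, Ipo or Ranbp, each read from its brightest probe set (by the mean of the 6 arrays). The rule found 47 genes among the 18193 tested. Of these, 20 encode pore subunits (19 Nup genes and Ranbp2, also called Nup358), 22 encode transport carriers, and 5 are other Ran-binding proteins. The nuclear pore complex is the channel through the nuclear envelope. It is built of stacked rings of scaffold proteins around a core of disordered proteins rich in phenylalanine-glycine pairs. Importins carry cargo inward and exportins outward through this core, and the small GTPase Ran, bound to GTP in the nucleus, sets the direction by releasing import cargo and loading export cargo. In liver, as elsewhere, the pore passes transcription factors in and messenger RNA, ribosomal subunits and transfer RNA out.

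Every animal was a CYP2D6 transgenic mouse on a C57BL/6 background, carrying the human P450 gene, and no group lacked the transgene. Whole liver was taken before pregnancy, on day 21 of pregnancy and on day 7 postpartum, with 2 biological replicates per stage and 1 Affymetrix array per liver. The labels give no age, sampling time, transgene promoter or relation between the animals, so p-values measure the spread between these livers only. Values are log2 expression after RMA (robust multi-array average, which corrects background, normalizes arrays and summarises probes), and a difference of 1 is a doubling.

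Array medians lay between 5.09 and 5.15, replicate arrays correlated across genes at 0.994 or above, and the number of arrays limits the precision. Of 7 hepatocyte markers, 6 were measured; their lowest value was 11.95 and 0 were called in any comparison. Replicates of the 47 genes differed by a median of 0.14 before pregnancy, 0.12 in pregnancy and 0.09 postpartum. Only 4 of the 47, Kpna7, Ranbp17, Xpo4 and Ranbp3l, had a mean below 5.51, the 40th percentile of all genes, where values lie near background. A gene is called where limma's adjusted p, over all genes tested, was under 0.05.

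Of 20 pore subunit genes, 7 fell and 0 rose in pregnancy relative to the pre-pregnancy liver, against 8.25% of all genes called lower and 5.46% called higher. All 20 lay above the 40th percentile of brightness. Among the 10916 such genes, fitted alone, 13.3% were called lower and 7.68% higher, with 8 of the 20 lower and 0 higher. The 7 were Nup160, Nup107, Nup43 and Nup37 of the outer ring, Nup205 and Nup155 of the inner ring, and Nup62 of the central channel. Their falls ran from 1.41-fold to 3.23-fold. The median difference of the 20 was -0.38 on the log2 scale, where that of all genes was 0.045 and that of the brighter genes -0.035. In 16 of 20 both pregnant arrays lay below both pre-pregnancy arrays, and in 1, Nup214, above them; among all genes these shares were 26.0% and 33.6%. In whole liver, fewer cells of a type and less RNA per cell cannot be told apart.

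The outer ring, or Y complex, is the scaffold that coats both faces of the pore. Nup160, which forms a long arm of the Y, had 6.37 and 6.14 in pregnancy against 8.06 and 7.83 before it. The groups lay far apart relative to the gap within each. The difference was -1.69 ± 0.136 (SE, n = 2 each), a 3.23-fold fall (adjusted p = 0.000864). Nup107, in the stem of the Y, had 7.68 and 7.66 in pregnancy against 8.32 and 8.24 before it, a fall (log2 difference -0.61 ± 0.0991, adjusted p = 0.00941). Its replicates lay within 0.08 of each other. Nup37, which binds Nup160, had 7.36 and 6.93 in pregnancy against 7.85 and 7.62 before it (-0.59 ± 0.161, adjusted p = 0.0493). Nup43, which sits on the other arm, had 6.25 and 6.32 in pregnancy against 6.96 and 6.64 before it (-0.515 ± 0.128, adjusted p = 0.0360). For both genes the groups did not overlap, and the calls lay close to the threshold. The remaining outer ring genes were not called: Nup85 differed by -0.35 ± 0.0979 (adjusted p = 0.0529) and Nup133 by -0.415 ± 0.180 (adjusted p = 0.163). All 6 outer ring genes had both pregnant arrays below both pre-pregnancy arrays, against 26.0% of all genes.

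**Figure D1:**
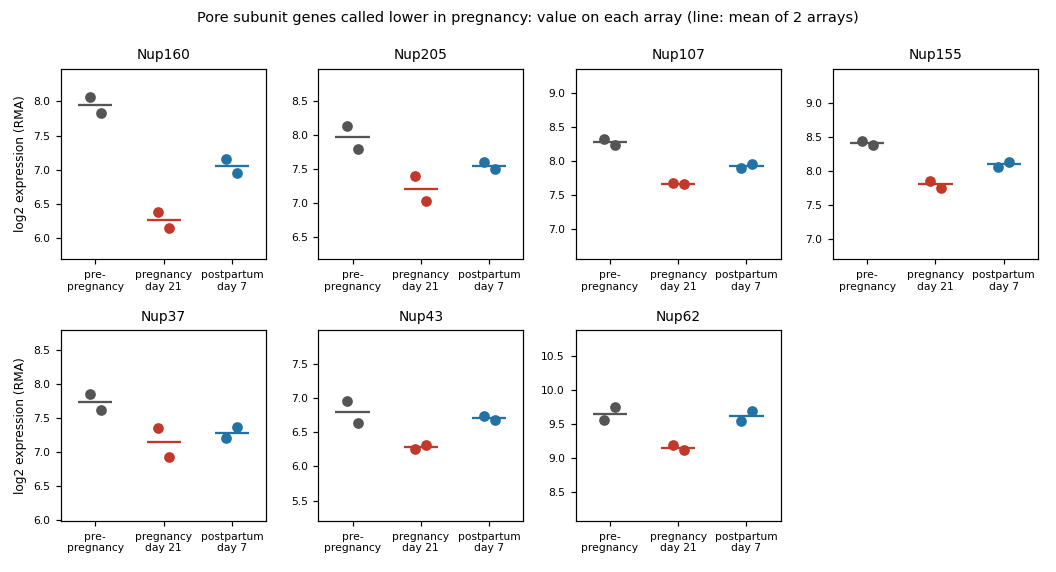
Log2 expression (y axis) of the 7 pore subunit genes called lower in pregnancy, on each of 2 arrays per stage (x axis), with a line at the mean of 2. In every panel both pregnant arrays lie below both pre-pregnancy arrays; every panel spans the same log2 range, and Nup160 shows the widest gap, with 6.37 and 6.14 in pregnancy against 8.06 and 7.83 before it.

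The inner ring joins the pore to the membrane and anchors the channel. Nup205, a large curved scaffold protein, had 7.39 and 7.02 in pregnancy against 8.13 and 7.79 before it, a fall (log2 difference -0.755 ± 0.162, 1.69-fold, adjusted p = 0.0233). Nup155 had 7.85 and 7.75 in pregnancy against 8.43 and 8.38 before it, a fall (log2 difference -0.605 ± 0.102, 1.52-fold, adjusted p = 0.0105). The groups were well separated in Nup155. In Nup205 they did not overlap, but the nearest arrays (7.39 and 7.79) lay about as far apart as the replicates of a group. Nup188, the paralog of Nup205, was not called, with 6.80 and 6.86 in pregnancy against 6.70 and 6.86 before it (0.05 ± 0.105, adjusted p = 0.779). Nup93, the hub to which these proteins bind, was not called either (-0.115 ± 0.102, adjusted p = 0.484).

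Subunits of the channel, basket and cytoplasmic side carry most of the phenylalanine-glycine repeats that receptors touch. Nup62, which lines the central channel, had 9.19 and 9.12 in pregnancy against 9.56 and 9.75 before it, a fall (log2 difference -0.50 ± 0.114, 1.41-fold, adjusted p = 0.0281). Its partner Nup54 differed by -0.26 ± 0.0969 (adjusted p = 0.115), with groups that did not overlap. Nup153 of the nuclear basket had 8.58 and 8.62 in pregnancy against 9.03 and 8.99 before it (-0.41 ± 0.121, adjusted p = 0.0625). Its groups did not overlap, and it lay just outside the threshold. Ranbp2, the cytoplasmic filament protein that docks the SUMO-modified Ran GTPase-activating protein, had 9.47 and 9.74 in pregnancy against 10.13 and 9.94 before it (-0.43 ± 0.129, adjusted p = 0.0651). Nup88 (-0.345, adjusted p = 0.0694) and Nup50 (-0.245, adjusted p = 0.201) had non-overlapping groups too and were not called. Probe sets of Nup50 disagreed in direction: 1450722_at had 8.22 and 8.04 in pregnancy against 7.81 and 7.58 before it (0.435, adjusted p = 0.0672), and 1422719_s_at stood at -0.615 (adjusted p = 0.0822). Nup210, a membrane-spanning subunit, had 8.93 and 8.52 in pregnancy against 9.09 and 9.02 before it (-0.33 ± 0.146, adjusted p = 0.170).

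Nup214 and Nup98 stood on the other side of 0 by their brightest probe sets. Nup214, the cytoplasmic partner of Nup88, had 7.97 and 8.08 in pregnancy against 7.55 and 7.75 before it (0.375 ± 0.130, adjusted p = 0.0957). All pregnant values were above the earlier ones, without passing the test. Nup98, found on both faces of the pore, had 8.11 and 8.29 in pregnancy against 7.96 and 8.23 before it, and the groups overlapped (0.105 ± 0.126, adjusted p = 0.610). Its other probe set, 1439154_at, ran the other way, with 6.04 and 5.91 in pregnancy against 6.26 and 6.38 before it (-0.345, adjusted p = 0.0754). That of Nup214 stood at -0.015 (1456503_at). Nup210l, a paralog of Nup210 best known from testis, overlapped as well (0.16 ± 0.143, adjusted p = 0.485).

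Of the 7 calls, 6 were lost with at least 1 array left out. Nup160 was called with each of the 6 arrays left out, Nup107 in 5 of 6 (lost without pre-pregnancy replicate 1) and Nup155 in 4 (lost without either pre-pregnancy array). Nup205 was called in 4 and lost without pre-pregnancy replicate 1 or pregnancy replicate 2. Nup62 was called in 2 (lost without any pre-pregnancy or pregnancy array), Nup43 in 1 (called without pre-pregnancy replicate 2 alone) and Nup37 in 1 (called without pregnancy replicate 1 alone). Repeated quantile normalization also ended the calls of Nup62 (adjusted p = 0.0733) and Nup37 (adjusted p = 0.0630). Without pre-pregnancy replicate 1, 1 of 20 pore subunits was called, and 323 of all genes were called against 2494 with all arrays.

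The 250 bases upstream of the start of 4 genes that fell in pregnancy are given, from RefSeq on GRCm38.p6, to show what sequence lies before members that moved together. The windows are chr2:90676965-90677214 (plus strand) for Nup160, chr10:117792706-117792955 (minus strand) for Nup107, chr15:8109063-8109312 (plus strand) for Nup155 and chr7:44815838-44816087 (plus strand) for Nup62, all 5′ to 3′ on the strand of the gene. Capitals mark matches, on either strand, to CACGTG (an E-box), CCAAT (the NF-Y motif), the palindrome bound by NRF1 and TTTCGCGC or TTTGGCGC (E2F-type letters).
Nup160: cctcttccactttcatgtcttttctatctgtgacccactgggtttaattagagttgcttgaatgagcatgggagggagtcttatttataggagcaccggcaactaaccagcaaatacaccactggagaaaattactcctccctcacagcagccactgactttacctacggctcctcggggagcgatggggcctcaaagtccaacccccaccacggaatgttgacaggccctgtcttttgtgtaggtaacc
Nup107: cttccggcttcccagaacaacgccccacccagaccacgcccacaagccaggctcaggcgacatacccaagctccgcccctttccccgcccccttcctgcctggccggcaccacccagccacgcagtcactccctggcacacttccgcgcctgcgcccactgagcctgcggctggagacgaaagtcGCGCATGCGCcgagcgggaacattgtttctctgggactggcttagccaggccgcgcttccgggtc
Nup155: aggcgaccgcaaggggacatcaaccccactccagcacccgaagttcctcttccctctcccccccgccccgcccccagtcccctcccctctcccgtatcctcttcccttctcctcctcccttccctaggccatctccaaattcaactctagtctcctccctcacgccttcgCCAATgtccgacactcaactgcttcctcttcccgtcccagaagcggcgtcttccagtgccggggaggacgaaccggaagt
Nup62: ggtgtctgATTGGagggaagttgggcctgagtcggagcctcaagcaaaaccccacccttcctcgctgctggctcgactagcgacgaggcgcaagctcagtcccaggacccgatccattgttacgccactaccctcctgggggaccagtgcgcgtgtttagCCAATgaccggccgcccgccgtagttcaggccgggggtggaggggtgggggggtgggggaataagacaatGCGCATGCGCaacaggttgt
The NRF1 palindrome stood in the windows of Nup107 and Nup62, the NF-Y motif in those of Nup155 and Nup62, and no searched letters in that of Nup160. Upstream windows were matched for 37 of the 47 genes, at the first start listed for each gene, which need not be the start used in liver. The NRF1 palindrome was found in 3 of 17 pore subunit windows (17.6%: Nup107, Nup62 and Nup50), in 1 of 17 carrier windows (Xpo5) and in 1.25% of 14452 windows of all genes tested. The E-box was found in 4 of 17 pore windows (Nup54, Nup93, Nup188 and Ranbp2), in 2 of 17 carrier windows and in 7.56% of all. Of the 6 called pore genes with a window, 2 held the NRF1 palindrome, 3 the NF-Y motif, 0 the E-box and 0 the E2F-type letters. The NF-Y motif was found in 8 of 17 pore windows, 8 of 17 carrier windows and 35.7% of all windows. The E2F-type letters were in 0 of 17, 0 of 17 and 1.06%. Median GC content was 64.4% in the 37 windows and 57.6% in all. A match is a stretch of letters, not a shown binding site.

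Of 22 carriers, 1 fell (Ranbp6) and 1 rose (Kpna7) in pregnancy, against the same 8.25% and 5.46% of all genes. Their median difference was -0.0975; the difference from the pore subunits was not tested. Pregnant arrays lay below the pre-pregnancy arrays in 9 of 22 and above in 5, against 26.0% and 33.6% of all genes, and the groups overlapped in 8.

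Among the importin alpha genes, whose products hold the nuclear localisation signal, Kpna7 had 5.03 and 5.01 in pregnancy against 4.64 and 4.54 before it (0.43 ± 0.102, adjusted p = 0.0313). Kpna7 is best known from oocytes and early embryos, its levels lay near background at each stage, where log2 differences are uncertain, and its call was lost with each of the 6 arrays left out. Kpna4, a carrier of NF-κB, had 9.32 and 9.25 in pregnancy against 9.02 and 8.87 before it (0.34 ± 0.104, adjusted p = 0.0692). Kpna2, often high in dividing cells, had 10.45 and 10.51 in pregnancy against 10.63 and 10.42 before it, with overlapping groups (-0.045 ± 0.170, adjusted p = 0.882). Kpna1 (-0.16), Kpna3 (-0.105) and Kpna6 (-0.09) were not called.

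Importin beta-like genes encode the receptors that pass through the channel themselves. Ranbp6, a paralog of Ipo5, had 6.81 and 6.66 in pregnancy against 7.36 and 7.24 before it, a 1.48-fold fall (-0.565 ± 0.136, adjusted p = 0.0331). The call was lost without any pre-pregnancy or pregnancy array, and with the mean of all probe sets (adjusted p = 0.0637). Ipo5, a carrier of ribosomal proteins and histones, had 9.10 and 9.11 in pregnancy against 9.10 and 9.07 before it (0.02 ± 0.0986, adjusted p = 0.911). The other Ipo genes were not called: Ipo9, Ipo11, Ipo7, Ipo8 and Ipo4 stood between -0.27 and -0.105, each with groups that did not overlap. Ipo13, which carries cargo both ways, stood at 0.335 ± 0.149 (adjusted p = 0.172).

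No exportin gene was called by limma in pregnancy (0 of 7). An unadjusted limma p under 0.05 was found for 3 of 7, against 5637 of all 18193 genes. Xpo1, the receptor for leucine-rich export signals, had 9.34 and 9.38 in pregnancy against 9.74 and 9.52 before it (-0.27 ± 0.113, adjusted p = 0.150). Xpo7 had 9.68 and 9.77 in pregnancy against 10.01 and 10.09 before it (-0.325 ± 0.105, adjusted p = 0.0793). In both genes the pregnant arrays were the lower pair. Xpo6, which exports actin, was higher on both pregnant arrays (0.33 ± 0.113, adjusted p = 0.0927). Xpo5, which exports microRNA precursors (0.15), Xpot, which exports transfer RNA (0.05), Xpo4 (-0.11) and Ranbp17, a paralog of Xpo7 (0.17), were not called.

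**Figure D2:**
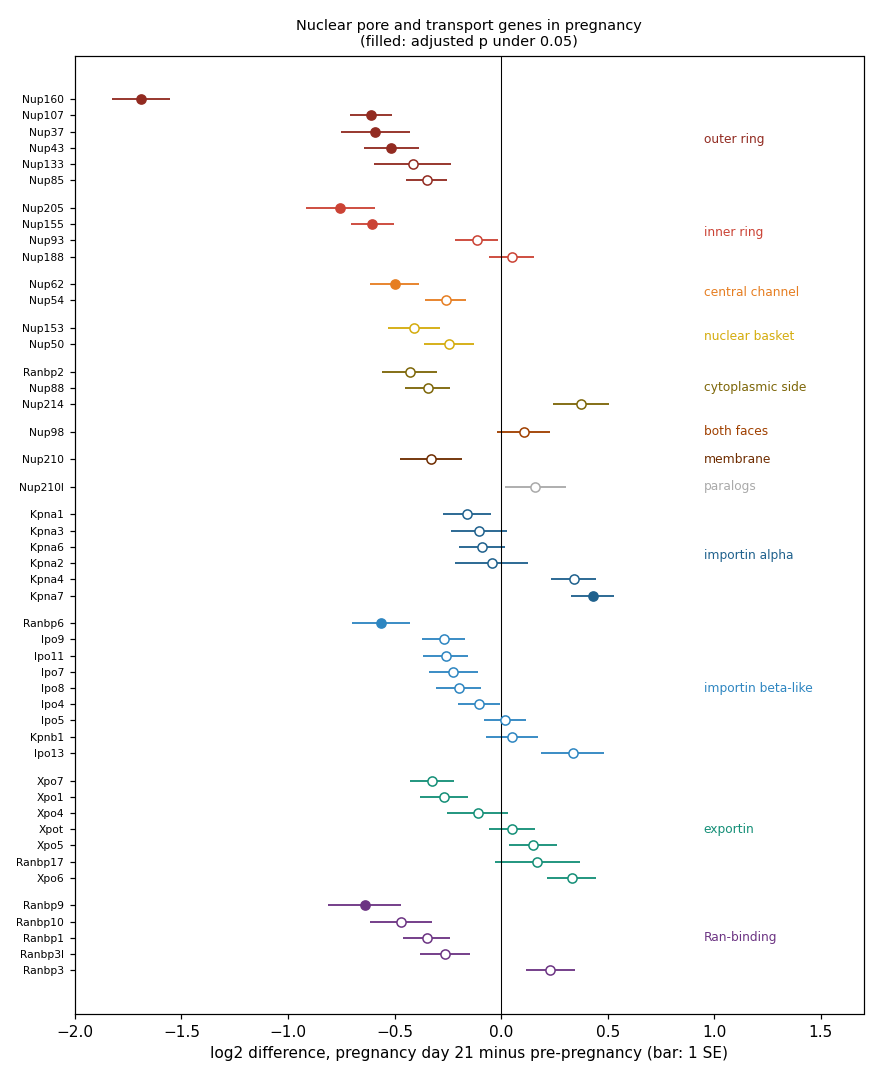
Log2 difference, pregnancy day 21 minus pre-pregnancy (x axis, with 1 SE), for each of the 47 genes grouped by role (y axis); filled points have an adjusted p under 0.05. Filled points are the 7 pore subunits from Nup160 (-1.69) to Nup62 (-0.50), Ranbp6, Kpna7 and Ranbp9, and every outer ring gene lies left of 0.

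Other Ran-binding proteins regulate Ran or serve as scaffolds. Ranbp9, a scaffold of the CTLH ubiquitin ligase, had 8.43 and 8.08 in pregnancy against 8.87 and 8.92 before it, a 1.56-fold fall (-0.64 ± 0.170, adjusted p = 0.0454). That call was lost without either pre-pregnancy array or pregnancy replicate 2. It rests on an _x_at probe set and was also lost with repeated quantile normalization, with the mean of all probe sets and without _s_at and _x_at probe sets (adjusted p up to 0.313). Its relative Ranbp10 (-0.47 ± 0.148, adjusted p = 0.0739) was not called. Ranbp1, which helps to hydrolyse the GTP of Ran, had 10.38 and 10.33 in pregnancy against 10.81 and 10.60 before it (-0.35 ± 0.110, adjusted p = 0.0747). Ranbp3, a cofactor of Xpo1 (0.23), and the dim gene Ranbp3l (-0.265) were not called. Of these 5 genes, 1 was called lower and 0 higher, against 8.25% and 5.46% of all genes. Both pregnant arrays lay below the pre-pregnancy arrays in 4 and above in 1, against 26.0% and 33.6% of all genes.

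Several members have more than 1 probe set, and for several carriers these disagreed. The 47 genes had 121 probe sets, and 37 genes had more than 1. Tested as single probe sets over all 34945, 24 were called lower and 2 higher in pregnancy, and they belonged to 18 genes; of all probe sets tested, 8.56% were called lower and 4.25% higher. Kpnb1, importin beta itself, is the clearest case. Its brightest probe set, 1451967_x_at, had 10.00 and 10.21 in pregnancy against 10.02 and 10.09 before it (0.05 ± 0.122, adjusted p = 0.811). Probe set 1448526_at had 8.79 and 9.07 in pregnancy against 9.53 and 9.66 before it (-0.665, adjusted p = 0.0160). Probe set 1416925_at had 8.61 and 8.41 in pregnancy against 9.10 and 9.01 before it (-0.545, adjusted p = 0.0227). Both lay clearly lower in pregnancy, as did the dim 1434357_a_at (-0.875, adjusted p = 0.00672). The suffix _x_at marks probes that may also bind other transcripts. The direction of Kpnb1 is not settled by these arrays.

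**Figure D3:**
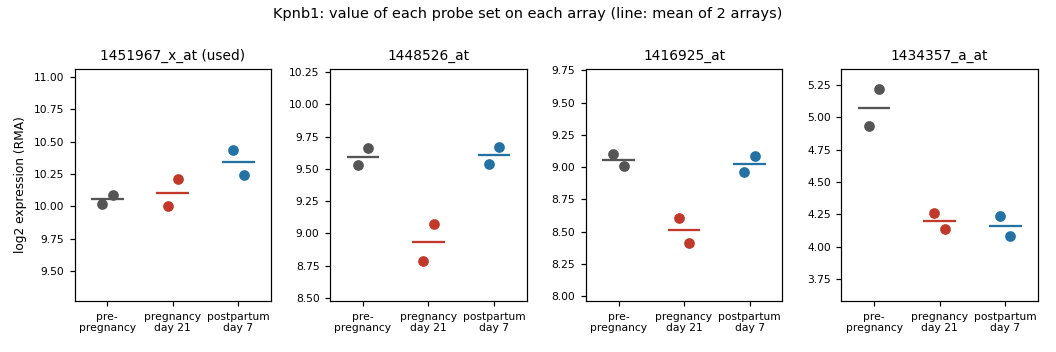
Log2 expression (y axis) of the 4 probe sets of Kpnb1 on each of 2 arrays per stage (x axis), with a line at the mean of 2; the panels have their own offsets and the same range. The brightest probe set overlaps between pregnancy and pre-pregnancy, and the other 3 are lower in pregnancy, with log2 differences from -0.875 to -0.545.

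Probe sets of Xpo1 and of Kpna3 differed in size, and those of Ipo5 and of Xpo5 in direction. A second Xpo1 probe set, 1418442_at, had 8.25 and 8.73 in pregnancy against 9.22 and 9.12 before it (-0.68, adjusted p = 0.0324). For Kpna3, 1421828_at had 6.54 and 6.39 in pregnancy against 7.51 and 7.28 before it (-0.93, adjusted p = 0.00460). Both were called lower where the brightest probe set was lower and not called. Ipo5 had a probe set at -0.445 (1426946_at, adjusted p = 0.0473) and another at 0.465 (1431706_at, adjusted p = 0.0788), beside 0.02. Xpo7 had 1415682_at at -0.56 (adjusted p = 0.0132). For Xpo5, 1428560_at had 6.16 and 6.42 in pregnancy against 6.51 and 6.55 before it (-0.24, adjusted p = 0.263), beside 0.15 in 1451468_s_at.

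Several pore subunits had further called probe sets in the same direction. Nup62 stood at -0.89, -0.805 and -0.78 in 3 further probe sets, each larger in size than the -0.50 of the brightest, and a dim one stood at 0.22 (adjusted p = 0.197). Nup155 stood at -0.75 in 1418727_at (adjusted p = 0.0367) and Nup43 at -0.595 in 1432187_at (adjusted p = 0.00974). Nup85 (-0.52, adjusted p = 0.0439), Nup133 (-0.54, adjusted p = 0.0215) and Nup54 (-0.49, adjusted p = 0.0309) were called lower by a second probe set and not by the brightest. A dim probe set of Nup133, 1457542_at, was called higher (0.405, adjusted p = 0.0478). The second probe sets of Nup160 and Nup205 were dim, at -0.095 and -0.055, so the size of these falls rests on 1 probe set each; Nup107 and Nup37 have a single one. That of Nup107 is 1426751_s_at, so Nup107 was not tested where probe sets ending in _s_at or _x_at were left out. In that alternative 7 pore subunits were again called lower, with Nup54 in the place of Nup107.

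**Figure D4:**
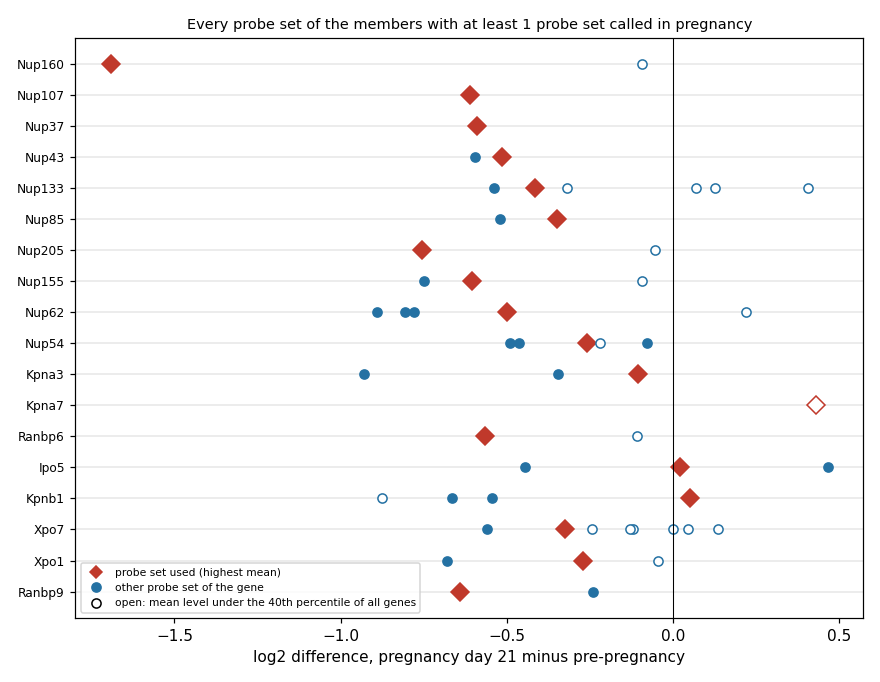
Log2 difference, pregnancy day 21 minus pre-pregnancy (x axis), of every probe set of the 18 genes with at least 1 called probe set (y axis); diamonds are the probe sets used, circles the others, and open symbols lie below the 40th percentile of brightness. For Kpnb1 and Ipo5 the diamond lies just right of 0 and a called circle left of it, while for Xpo1, Kpna3, Nup62, Nup155 and Nup43 the diamond and the called circles all lie left of 0.

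Genes of the pathway outside the naming rule were counted as fixed lists, beside 8.25% of all genes called lower and 5.46% called higher in pregnancy. Of 10 further pore subunit genes, 2 fell and 0 rose. Ndc1, a membrane anchor of the pore, had 6.84 and 6.42 in pregnancy against 7.21 and 7.21 before it (-0.58 ± 0.143, adjusted p = 0.0358). Ahctf1 (ELYS), which seats the Y complex on chromatin, had 9.06 and 8.72 in pregnancy against 9.58 and 9.43 before it (-0.615 ± 0.151, adjusted p = 0.0348). In both genes the pregnant arrays were the lower pair. Sec13 (-0.015 ± 0.178) and Seh1l (-0.05 ± 0.122), named here after their values were seen, are Y complex subunits that also serve in the GATOR complex, and Sec13 in COPII coats as well; neither was called. Of 4 Ran cycle genes, 1 fell, Rangrf (-0.52 ± 0.124, adjusted p = 0.0323), which binds Ran. Of 8 further carriers, Nxt2, a partner of mRNA export receptors, fell (-1.105 ± 0.199, 2.15-fold, adjusted p = 0.0128). Tnpo3, the importer of splicing factors, was the 1 that rose (0.63 ± 0.124, adjusted p = 0.0173). Of 12 mRNA export genes, 0 were called by limma, and 3 had an unadjusted p under 0.05, against 5637 of all 18193 genes.

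DNA replication genes and markers of other cell types differed beside these falls, where 8.25% of all genes were called lower and 5.46% higher in pregnancy. Of 13 proliferation genes, 7 fell and 0 rose in pregnancy, and their summed level (log2 of summed linear values) was 10.96 to 11.29 in pregnancy against 12.80 to 13.08 before it. The 7 were the replication genes Pcna and Mcm2 to Mcm7. The mitotic and cyclin genes of the list were not called and had no common direction: Mki67 stood at 0.005, Ccna2 at 0.565, Ccnb2 at 1.135, Birc5 at -0.15, Cdk1 at -0.90 and Top2a at -1.095. These are means of 2 pregnant arrays that lay far apart, replicate 1 being the higher in each gene. Replicates 1 and 2 had 7.01 and 4.80 for Ccnb2, 6.55 and 4.35 for Birc5, and 7.63 and 5.69 for Ccna2. They had 6.94 and 5.86 for Mki67, 7.20 and 6.11 for Cdk1, and 6.14 and 5.12 for Top2a. Of 7 endothelial markers, 3 fell (summed 10.49 to 10.51 in pregnancy against 10.84 to 10.94 before it), of 7 Kupffer cell and macrophage markers 2 fell (12.31 to 12.60 in pregnancy against 12.72 to 12.74 before it), and of 6 stellate markers 1 fell (12.26 to 12.27 in pregnancy against 12.54 to 12.60 before it). Of 5 neutrophil markers 2 rose (summed 8.37 to 8.45 in pregnancy against 7.84 to 8.0 before it). Of 6 pancreatic acinar markers 1, Cela3b, rose, and the summed level of the 6 was 9.54 to 9.82 in pregnancy against 7.61 to 7.72 before it. Cela3b itself had 9.23 and 9.59 in pregnancy against 6.31 and 6.44 before it. Among T and B cell, cholangiocyte and erythroid markers, 0 of 5, 0 of 4 and 0 of 3 were called in pregnancy. These values have no true 0. The part of cell makeup in the results was not tested.

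Day 7 postpartum was set against day 21 of pregnancy, using the same pregnant arrays. Of 20 pore subunits 1 rose, Nup160, and of 22 carriers 1 rose, Xpo7; 0 fell in either class, against 2.41% of all genes called higher and 0.879% called lower. Nup160 had 7.15 and 6.95 postpartum against 6.37 and 6.14 in pregnancy (0.795 ± 0.136, 1.735-fold, adjusted p = 0.0274). Xpo7 had 10.26 and 10.38 postpartum against 9.68 and 9.77 in pregnancy (0.595 ± 0.105, 1.51-fold, adjusted p = 0.0298). Both sets of arrays were cleanly apart. The Nup160 call held in 1 of 6 arrays left out (lost without all but pregnancy replicate 1) and the Xpo7 call in 0. The mean of all probe sets ended both calls (adjusted p = 0.0763 and 0.270). A second bright Xpo7 probe set, 1415682_at, stood at 0.275 (adjusted p = 0.199), and the dim 1435814_at was called higher (0.615, adjusted p = 0.0368).

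Apart from Nup160, no pore subunit passed the test. The median difference of all 20 was 0.2325, where that of all genes was -0.01; it was 0.1104 after repeated quantile normalization and 0.145 without pregnancy replicate 2. Postpartum arrays lay above the pregnant ones in 12 of 20 pore subunits and in 10 of 22 carriers; among all genes the share was 25.1%. Nup62 had 9.55 and 9.69 postpartum against 9.19 and 9.12 in pregnancy (0.465 ± 0.114, adjusted p = 0.0733). Nup210 had 9.19 and 9.32 postpartum against 8.93 and 8.52 in pregnancy (0.53 ± 0.146, adjusted p = 0.0981). Both pairs were separated by stage. Nup43 had 6.74 and 6.68 postpartum against 6.25 and 6.32 in pregnancy (0.425 ± 0.128, adjusted p = 0.119), and its other probe set was called (0.52, adjusted p = 0.0403). Nup107 had 7.90 and 7.96 postpartum (0.26 ± 0.0991, adjusted p = 0.193), Nup155 8.05 and 8.13 (0.29 ± 0.102, adjusted p = 0.164), and Nup205 7.60 and 7.49 (0.34 ± 0.162, adjusted p = 0.283). These 3 lay above their pregnant arrays. Nup37 (7.21 and 7.37) overlapped with pregnancy (0.145 ± 0.161, adjusted p = 0.662), as did Nup153 (8.72 and 8.43, -0.025) and Ranbp2 (9.56 and 9.65, 0). In 1441733_s_at, Nup153 had 6.86 and 7.02 postpartum against 6.52 and 6.65 in pregnancy (0.355, adjusted p = 0.139). Nup214 (7.95 and 8.21) overlapped, and Nup98 (8.42 and 8.39) lay above its pregnant arrays (0.205 ± 0.126, adjusted p = 0.405).

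Among carriers, Kpnb1 again differed by probe set. Its brightest had 10.44 and 10.24 postpartum against 10.00 and 10.21 in pregnancy (0.235 ± 0.122, adjusted p = 0.324). In 1448526_at it had 9.54 and 9.67 postpartum against 8.79 and 9.07 in pregnancy (0.675, adjusted p = 0.0396). Xpo1 had 9.71 and 9.63 postpartum against 9.34 and 9.38 in pregnancy (0.31 ± 0.113, adjusted p = 0.176). Kpna2 had 10.49 and 11.00 postpartum, the widest gap between replicates of the 47 genes at that stage, against 10.45 and 10.51 in pregnancy (0.265 ± 0.170, adjusted p = 0.426). Ipo5 (8.96 and 9.05) was at -0.10 and Ranbp6 (6.96 and 7.29) at 0.39 ± 0.136 (adjusted p = 0.162). The other, dim probe set of Ranbp6, 1440228_at, ran the other way. It had 4.71 and 4.82 postpartum against 5.12 and 5.16 in pregnancy (-0.375, adjusted p = 0.105). The remaining carriers stood between -0.185 (Kpna7, 4.79 and 4.88 postpartum) and 0.25 (Kpna6). Among the Ran-binding proteins 0 of 5 were called. Ranbp9 had 8.46 and 8.03 postpartum against 8.43 and 8.08 in pregnancy (-0.01 ± 0.170, adjusted p = 0.982), and Ranbp1 had 10.50 and 10.47 (0.13 ± 0.110, adjusted p = 0.551). Of the 13 proliferation genes 6 rose and 0 fell over this interval, with a summed level of 12.01 to 12.23 postpartum against 10.96 to 11.29 in pregnancy. Among cell type markers, S100a9 (neutrophil, -0.525, adjusted p = 0.0388) and Cela3b (acinar, -2.815, adjusted p = 0.000688) fell.

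Day 7 postpartum was also set against the pre-pregnancy liver. Of 20 pore subunits 1 fell, Nup160, and of 22 carriers 1 rose, Kpna4, against 3.75% of all genes called lower and 3.91% called higher. Nup160 had 7.15 and 6.95 postpartum against 8.06 and 7.83 before pregnancy, a fall (-0.895 ± 0.136, 1.86-fold, adjusted p = 0.0119), lost without pre-pregnancy replicate 1 or postpartum replicate 2. It was thus the 1 member called in all 3 comparisons. Kpna4 had 9.38 and 9.38 postpartum against 9.02 and 8.87 before pregnancy (0.435 ± 0.104, 1.35-fold, adjusted p = 0.0472). The Kpna4 call was lost with each of the 6 arrays left out, and its other, dim probe set stood at -0.075 (adjusted p = 0.821).

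Postpartum arrays lay below the pre-pregnancy ones in 9 of 20 pore subunits and above in 5, and in 6 and 9 of 22 carriers; among all genes the shares were 22.6% below and 30.0% above. The subunits below included Nup107 (-0.35 ± 0.0991, adjusted p = 0.0750), Nup153 (-0.435 ± 0.121, adjusted p = 0.0722), Ranbp2 (-0.43 ± 0.129, adjusted p = 0.0873), Nup155 (-0.315), Nup205 (-0.415) and Nup37 (-0.445). A second probe set of Nup153, 1441733_s_at, ran the other way, with 6.86 and 7.02 postpartum against 6.80 and 6.75 before pregnancy (0.165, adjusted p = 0.462). Nup62 (-0.035) and Nup43 (-0.09) overlapped with their pre-pregnancy arrays. The Nup62 value is that of an _x_at probe set; its 3 other bright probe sets stood at -0.405, -0.325 and -0.37, each with groups that did not overlap and none called. Nup214 (0.43 ± 0.130, adjusted p = 0.0883), Nup98 (0.31 ± 0.126, adjusted p = 0.191) and Nup210 (0.20 ± 0.146, adjusted p = 0.487) were above by their brightest probe sets. The other Nup98 probe set, 1439154_at, ran the other way, with 6.02 and 5.97 postpartum against 6.26 and 6.38 before pregnancy (-0.325, adjusted p = 0.116). Among carriers the widest differences not called were Ipo13 (0.54 ± 0.149, adjusted p = 0.0699) and Xpo6 (0.355 ± 0.113, adjusted p = 0.102). Kpnb1 stood at 0.285 ± 0.122 (adjusted p = 0.214) by its brightest probe set and at -0.915 (adjusted p = 0.00809) by the dim 1434357_a_at. Its bright probe sets 1448526_at (0.01) and 1416925_at (-0.03) lay near 0. Kpna2 (0.22), Xpo1 (0.04), Xpo7 (0.27), Ipo5 (-0.08), Kpna7 (0.245) and Ranbp6 (-0.175) were not called by their brightest probe sets. By other probe sets, Ranbp6 (dim 1440228_at, -0.485, adjusted p = 0.0298) and Kpna3 (1421828_at, -0.69, adjusted p = 0.0184) were called lower. Xpo7 stood at -0.285 in 1415682_at (adjusted p = 0.145) and at 0.37 in the dim 1435814_at (adjusted p = 0.0964). In 1418442_at, Xpo1 stood at -0.345 (adjusted p = 0.268). The 2 other Ipo5 probe sets stood at -0.43 (1426946_at) and 0.43 (1431706_at). Ranbp9 stood at -0.65 ± 0.170 (adjusted p = 0.0608), Ranbp3 at 0.44 ± 0.1145 (adjusted p = 0.0594) and Ranbp1 at -0.22 ± 0.110 (adjusted p = 0.292). Of the 13 proliferation genes, 2 rose (Mki67 and Ccnb2) and 7 fell (Pcna and Mcm2 to Mcm7) in the same comparison. Of the cell type markers, Timd4 (Kupffer cell, -0.61, adjusted p = 0.0147) and Ms4a1 (B cell, -0.54, adjusted p = 0.0425) fell, and postpartum arrays lay below the pre-pregnancy ones in 6 of 7 endothelial markers, of which 0 were called.

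**Figure D5:**
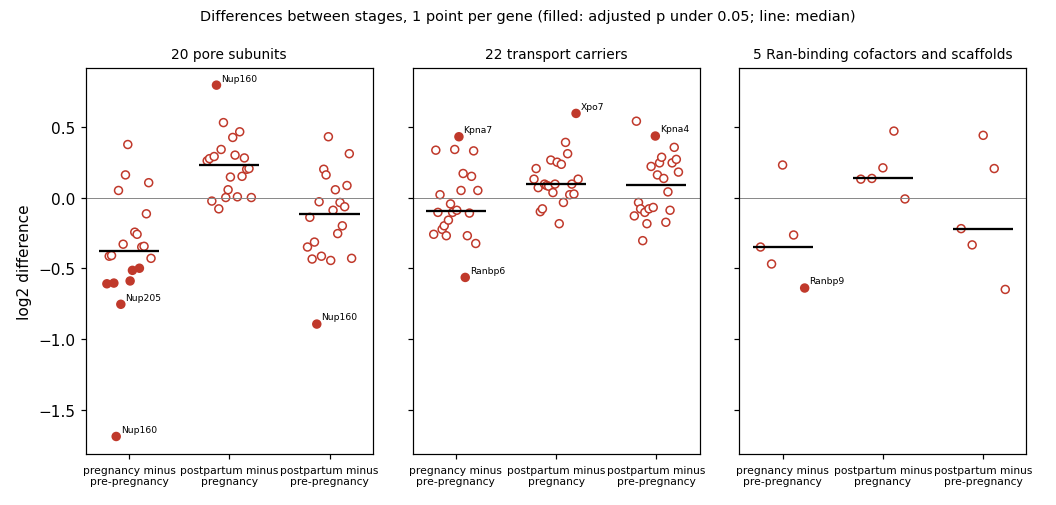
Log2 differences between stages (y axis) for 20 pore subunits, 22 transport carriers and 5 other Ran-binding proteins in the 3 comparisons (x axis), which share arrays; 1 point per gene, filled where the adjusted p was under 0.05, with a line at the median. Pore subunits have medians of -0.38, 0.2325 and -0.115 from left to right, and carriers -0.0975, 0.095 and 0.0875. The carrier medians stand close to 0, and the third turned sign (-0.0065) with the mean of all probe sets.

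Over the 3 stages, 14 of 20 pore subunits had their lowest mean in pregnancy and 13 their highest before it. Among carriers 12 of 22 were lowest in pregnancy, 9 highest before it and 10 highest postpartum. Of all genes, 30.7% were lowest in pregnancy, 29.2% highest before it and 30.0% highest postpartum. The postpartum mean lay between the other two in 11 of 20 pore subunits and 10 of 22 carriers, against 42.2% of all genes. Outside the naming rule, Tnpo3 (0.815 ± 0.124, adjusted p = 0.0118) stood above and Nxt2 (-1.365 ± 0.199, adjusted p = 0.0105) below its pre-pregnancy level on day 7 postpartum.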

How the data were processed

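Total RNA from 6 livers was labelled by a 3' in vitro transcription kit and hybridised to 1 Affymetrix mouse array each, per the labels' protocols. The deposited table holds log2 values for 45101 probe sets; the authors used RMA and Affymetrix Power Tools, per the submitters' processing notes, whose versions and settings are not stated. The log2 base is inferred from the values (2.69 to 15.05). Quantile normalization within RMA, if applied, hides a shift common to most genes, and RMA shrinks differences near background. Of the probe sets, 34945 with exactly 1 symbol were kept; 932 with several, 9160 unnamed here and 64 controls were left out. RefSeq's gene table held 34741 of the IDs kept and changed 0 symbols. The brightest probe set per gene gave 18193 genes.

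The test was limma 3.58.1, run in R 4.3.3 (a mean per group over all 6 arrays, then eBayes; 3 residual and 4.80 prior degrees of freedom; two-sided; Benjamini-Hochberg adjustment over all genes tested; threshold 0.05). Each SE printed is limma's moderated one. Single probe sets were fitted in the same way over all 34945. The procedure was tested on simulated data. Values on every array are printed for members called in any comparison and for 12 fixed members, and up to 5 called genes of each further list are named. The members and lists were chosen with earlier results of these data known. Collection time and feeding are not given, so neither can be told apart from stage if they differed. Alternatives were another centring, repeated quantile normalization, a filter on dim genes, the mean of all probe sets, a trended robust variance, the replicate number as a block, each array left out and, added after seeing the data, leaving out probe sets ending in _s_at or _x_at.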

Additional observations from a re-analysis of the deposited data

How the results depend on the processing

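The count of pore subunits called lower in pregnancy was 7, and 5 to 9 under the other normalizations, filters, probe set rules, variance model and block; over single arrays left out it ranged from 1 to 6. The low end came without pre-pregnancy replicate 1 (1), pregnancy replicate 2 (3) and pre-pregnancy replicate 2 (4). Carriers called in pregnancy numbered 2, with 1 after leaving out dim genes, 3 with median centring (adding Kpna4), the mean of all probe sets or no _s_at and _x_at probe sets, and 0 to 1 over the arrays left out. Calls over all genes went from 323 to 1977 with arrays left out, where the full count was 2494. For postpartum against pregnancy, pore calls were 2 without _s_at and _x_at probe sets and 0 to 2 over the arrays left out. Carrier calls there were 0 with the mean of all probe sets, 2 without _s_at and _x_at probe sets and 0 with any array left out, and calls over all genes 114 to 528, where the full count was 599. For postpartum against pre-pregnancy, pore calls were 0 to 1 over the arrays left out. Carrier calls there were 0 with the mean of all probe sets, 0 with the replicate number as a block and 0 to 1 over the arrays left out, and calls over all genes 73 to 1582, where the full count was 1393. Leaving out an array leaves a group of 1, assumed to vary like the others, with fewer samples in the fit.

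Carrier medians moved to -0.0154 in pregnancy and 0.009 postpartum against pregnancy after repeated quantile normalization, and postpartum against pre-pregnancy to -0.0065 with the mean of all probe sets and 0.0075 without postpartum replicate 2. Directions turned mainly between probe sets. In pregnancy, Kpnb1 (0.05) stood at -0.51 with the mean of all probe sets, at -0.665 without _s_at and _x_at probe sets, and at -0.665, -0.545 and -0.875 in its other probe sets. Ipo5 (0.02) stood at -0.445 in 1426946_at, and Nup62 at 0.22 in the dim 1448150_at. For postpartum against pregnancy, 4 dim probe sets of Xpo7 stood at -0.105, -0.025, -0.005 and -0.005. In that comparison Ranbp6 (0.39) stood at -0.375 in the dim 1440228_at, and Nup153 (-0.025) at 0.355 in 1441733_s_at. For postpartum against pre-pregnancy, a dim probe set of Kpna4 stood at -0.075 and 1434357_a_at of Kpnb1 at -0.915. There Xpo7 (0.27) stood at -0.285 in 1415682_at, Xpo1 (0.04) at -0.345 in 1418442_at and Nup153 (-0.435) at 0.165 in 1441733_s_at. Nup98 (0.31) stood at -0.325 in 1439154_at in the same comparison. The cause was not tested. Deviations of same-numbered replicates from their group means correlated at 0.0285, -0.0273 and 0.111 across the 3 pairs of groups. With 2 arrays per group, these values cannot show what a shared number marks, and the labels do not say. As a replicate block the number kept the 10 member calls in pregnancy and the 2 postpartum against pregnancy. In postpartum against pre-pregnancy the block ended the call of Kpna4 and added that of Ranbp9. Signal near background limits Kpna7, Ranbp17, Xpo4 and Ranbp3l.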
